A study of Mus musculus with 16 samples.

Results

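B lineage genes were followed in CD4 T cell libraries from mice that carried a B cell lymphoma, to ask whether transcripts of lymphoma cells remained in the CD4 fraction. The genes were Cd79a, Cd79b, Ms4a1, Pax5, Ebf1, Blnk, Vpreb1, Vpreb3 and Igll1, chosen by symbol for their known use in B cells, and all 9 were found among the 23479 genes of the count table. The lymphoma-bearing mice had received Eu-Myc lymphoma cells by transplant, and CD4 T cells were taken from the spleen at day 14 (n = 4 libraries) or day 7 (n = 7 libraries). The control mice carried no tumour (5 libraries, labelled as day 0). All mice were C57BL/6, and all libraries were RNA-seq of splenic CD4 T cells purified by negative selection, in which beads remove the other cells.

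Eu-Myc lymphoma arises in B lineage cells in which the immunoglobulin heavy chain enhancer drives Myc, and such tumours can resemble immature or mature B cells. Cd79a and Cd79b pair with membrane immunoglobulin and carry the signal of the B cell receptor inward. Before a light chain exists, pre-B cells place the surrogate light chain, made from VpreB proteins and the Igll1 product, in its position. Normal B cells of the spleen use most of these genes as well, so a read of Cd79a does not tell whether it came from a lymphoma cell or a normal B cell.

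No B lineage gene was called higher in the lymphoma-bearing mice than in controls. Cd79a was called lower on day 14 than in controls, and none of the other 6 tested genes passed the test in any comparison. The Cd79a call was kept in 7 of 11 other settings and in 10 of 16 fits that left out 1 library. Igll1 had a few reads in 7 of the 11 lymphoma libraries and 0 reads in the 5 controls, too few to pass the filter on low counts.

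Library totals over genes ran from 14493764 to 27340070 reads. CPM is the count per 1000000 reads in genes after TMM scaling, and it is not divided by gene length unless that is stated. The Xist values below are scaled by library totals alone. Among the libraries that stood apart, day 14 library 4, day 7 libraries 6 and 7 and control libraries 1 and 2 held 352 to 433 CPM of 4 summed Y-linked genes, against at most 3.55 CPM in the other 11. The same day 14 and control libraries had 835 to 2270 CPM of 9 summed neutrophil genes, against 0.802 to 60.8 CPM in all others. Day 14 library 1 stood apart in another way: it had 0 CPM of the Y-linked genes and 10.997 CPM of Xist, which is transcribed from the inactive X chromosome, against 1545 to 2402 CPM of Xist in the other 10 libraries without Y-linked transcripts. It also had the highest share of reads outside gene models, reads in 94.5% of the olfactory receptor genes, and the lowest Cd79a of all 16 libraries. Among the controls, library 5 had the lowest level of Cd79a, Cd79b, Ms4a1, Pax5 and Blnk. Reads falling outside gene models made up 54.4% to 69.8% on day 14, 54.6% to 68.0% on day 7 and 47.1% to 56.7% in controls. The 8 listed T cell genes were high throughout and summed to 3471 to 5173 CPM on day 14, 4801 to 6721 CPM on day 7 and 3444 to 6301 CPM in controls.

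Changes were tested with edgeR's quasi-likelihood test over 18430 genes that passed the count filter, with Benjamini-Hochberg adjustment and a threshold of 0.05. In day 14 mice 1.80% of the tested genes were called lower and 1.33% higher than in controls. The day 7 comparison with controls called 0% lower and 0.0109% higher, and the day 14 comparison with day 7 called 0.553% lower and 0.412% higher. Every library of one group lay below every library of the other for 2.85% of tested genes on day 14 against controls, 0.982% on day 7 against controls and 2.78% on day 14 against day 7, and above for 5.24%, 0.988% and 1.77%. Among the 7 tested B lineage genes only Cd79a on day 14 against controls was so placed. Of the B lineage genes, 7 were tested, and 1 of 7, 0 of 7 and 0 of 7 were called lower in these comparisons, with none called higher. At an unadjusted p under 0.05 the counts of lower genes were 2, 3 and 1. The share of all tested genes at that unadjusted threshold was not counted. Unadjusted counts, here and for the other lists below, are therefore descriptions without a background. DESeq2 called 2, 3 and 0 lower, beside 3.79%, 8.45% and 2.90% of all genes to which it gave an adjusted p, and limma-voom called none. Those DESeq2 shares of genes called lower also stand beside the DESeq2 counts of lower genes in the other lists below. In the same order of comparisons, 7, 6 and 3 of the 7 tested genes had a log2 change below 0. Whether the list differs from the background was not tested. All comparisons with controls share the same 5 control libraries.

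The 7 tested genes had a median log2 change of -1.07 on day 14 and -1.30 on day 7 against controls, beside 0.12 and 0.07 over all tested genes. In day 14 against day 7 mice the median was 0.11, beside 0.12 over all tested genes. Scaling by library totals alone put the medians of all genes at 0.32, 0.11 and 0.29 in the same order, and the members' medians at -0.88, -1.25 and 0.28. That scaling also changed the calls over all genes on day 14 against controls to 100 lower and 699 higher, beside 331 and 246 with TMM. The members' direction against controls was the same under both scalings. In bulk RNA, fewer cells of a type and less RNA per cell cannot be told apart.

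**Figure D1:**
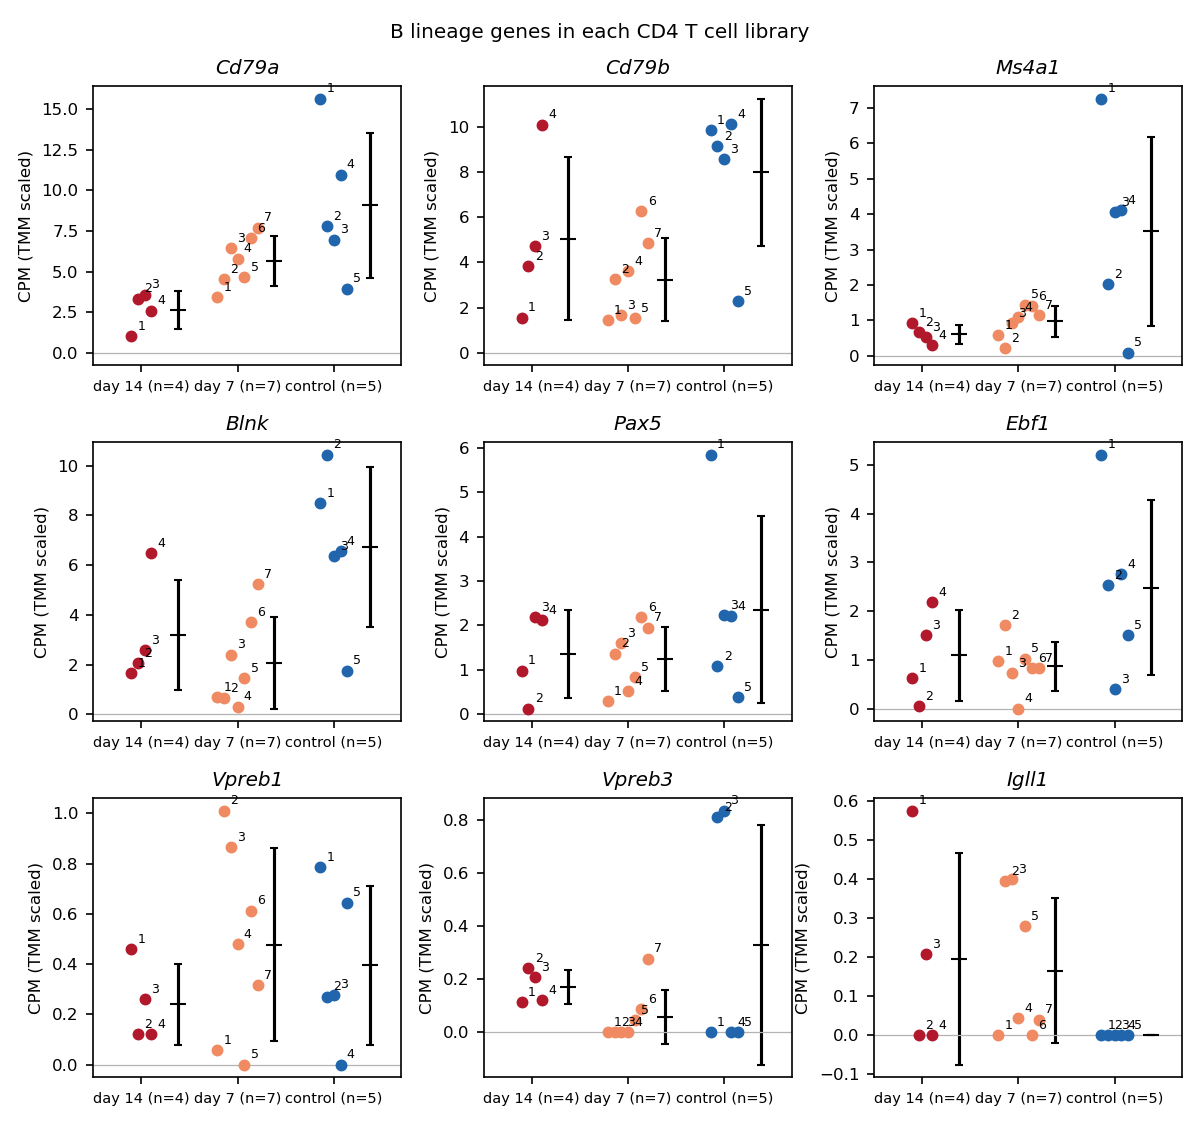
CPM of each B lineage gene in each library, with day 14 (n = 4), day 7 (n = 7) and control (n = 5) from left to right; numbers are replicate numbers, bars show mean and SD. Cd79a lies below the controls in all 4 day 14 libraries, and Igll1 is at 0 in all 5 controls.

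Cd79a encodes the alpha signalling chain of the B cell receptor. It lies at chr7:24897381-24902197 on the plus strand of mm10, with 5 exon blocks. Its levels were 1.04, 3.34, 3.58 and 2.60 CPM in the day 14 libraries, against 15.7, 7.82, 6.97, 10.98 and 3.95 CPM in the controls. Day 7 libraries had 3.44 CPM at the lowest, 5.80 CPM at the median and 7.71 CPM at the highest. Every day 14 library was below every control, and the highest day 14 value, 3.58 CPM, was close to the 3.95 CPM of control library 5.

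Cd79a averaged 2.64 ± 1.15 CPM on day 14 (SD, n = 4) and 9.08 ± 4.45 CPM in controls (SD, n = 5). The log2 change was -1.78 ± 0.40 (SE; edgeR adjusted p = 0.0275). In the fit without control libraries 1 and 2 the log2 change was -1.46 (edgeR adjusted p = 0.0463), and among the libraries with no Y-linked transcripts it was -1.48 (edgeR adjusted p = 0.0602). Leaving out 1 library at a time gave log2 changes from -1.97 to -1.48 and adjusted p-values from 0.0140 to 0.105, the highest without day 14 library 1 (edgeR). Day 7 mice averaged 5.66 ± 1.53 CPM of Cd79a (SD, n = 7), a log2 change of -0.68 ± 0.33 against controls that did not pass (edgeR adjusted p = 0.240). Day 14 against day 7 gave -1.10 ± 0.37 (edgeR adjusted p = 0.163), so the order of the group means, lowest on day 14 and highest in controls, is a description.

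Cd79b encodes the beta signalling chain of the same receptor, at chr11:106311341-106314762 on the minus strand. It had 1.55, 3.83, 4.73 and 10.1 CPM on day 14, against 9.85, 9.13, 8.57, 10.1 and 2.28 CPM in controls. The day 7 libraries ran from 1.43 CPM through a median of 3.25 CPM to 6.26 CPM. Day 14 library 4 reached the level of the controls, and control library 5 lay within the lymphoma libraries, so the groups overlap.

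The Cd79b means were 5.05 ± 3.62 CPM on day 14 (SD, n = 4), 3.23 ± 1.85 CPM on day 7 (SD, n = 7) and 7.99 ± 3.25 CPM in controls (SD, n = 5). Log2 changes against controls were -0.66 ± 0.53 on day 14 (edgeR adjusted p = 0.451) and -1.30 ± 0.45 on day 7 (edgeR adjusted p = 0.109), and neither passed. Without control library 5, 3 of the 7 tested genes were called lower on day 7, Cd79b, Ms4a1 and Blnk, but so were 5.58% of all tested genes, against 0% with that library. A covariate for Y-linked transcripts, chosen after seeing the data, likewise called Cd79b and Blnk lower on day 7, beside 3.09% of all tested genes.

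Both chains are needed for one receptor, so their balance was read within each library. Cd79a made up 20.5% to 46.6% of the reads of the pair on day 14, 53.0% to 79.5% on day 7 and 44.9% to 63.4% in controls. The day 14 and day 7 ranges do not overlap, while the controls overlap both. The lowest share, 20.5% of 210 reads (95% Wilson interval 15.6% to 26.4%), was in day 14 library 4, the library with 1730 CPM of neutrophil genes. Control libraries 1 and 2, with 835 and 2270 CPM of those genes, had shares of 61.4% and 46.1%. These shares were examined after values were seen, are given with no test, and their intervals cover counting error only.

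Blnk encodes the adaptor that links the receptor's kinase to downstream signalling, at chr19:40928927-40994535 on the minus strand. Levels were 1.67, 2.07, 2.60 and 6.47 CPM on day 14, against 8.50, 10.4, 6.38, 6.57 and 1.76 CPM in controls. Day 7 libraries ran from 0.305 CPM through 1.44 CPM to 5.24 CPM. Control library 5 again sat among the lymphoma libraries, and day 14 library 4 sat among the controls.

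Blnk averaged 3.20 ± 2.21 CPM on day 14 (SD, n = 4), 2.06 ± 1.84 CPM on day 7 (SD, n = 7) and 6.73 ± 3.23 CPM in controls (SD, n = 5). Its log2 changes of -1.07 ± 0.68 on day 14 (edgeR adjusted p = 0.350) and -1.70 ± 0.58 on day 7 (edgeR adjusted p = 0.105) did not pass. The day 14 and day 7 libraries with the highest Blnk are those with Y-linked transcripts.

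The 250 bases before the start of Blnk and of Vpreb3 are shown because each holds the octamer ATGCAAAT, a letter run bound by POU factors such as the products of Pou2f1 and Pou2f2. It is written in capitals on the opposite strand, in sequence from RefSeq (GRCm38.p6). The starts are RefSeq's, and both lie within the gene spans given here, which are from another annotation, GENCODE.
Blnk, chr19:40994222-40994471, minus strand: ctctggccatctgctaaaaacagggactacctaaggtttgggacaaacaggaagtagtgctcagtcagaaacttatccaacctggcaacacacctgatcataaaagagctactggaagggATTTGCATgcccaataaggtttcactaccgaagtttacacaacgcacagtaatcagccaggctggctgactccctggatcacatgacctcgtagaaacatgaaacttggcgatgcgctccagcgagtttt
Vpreb3, chr10:75948050-75948299, plus strand: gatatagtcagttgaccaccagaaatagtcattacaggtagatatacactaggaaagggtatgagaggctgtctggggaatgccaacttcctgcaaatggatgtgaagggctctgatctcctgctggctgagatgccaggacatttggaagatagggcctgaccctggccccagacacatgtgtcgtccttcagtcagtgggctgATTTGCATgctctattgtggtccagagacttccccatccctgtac
Promoter windows were matched for 7 of the 9 genes. Searched on both strands, the octamer was in 2 of the 7, beside 1.61% of 27025 windows. The EBF1 core CCCNNGGG, searched on the same windows, was in 1 of 7, at Igll1, beside 11.7% of all windows. These are matches of letters and show no binding.

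Ms4a1 encodes CD20, a surface protein of B cells from the pre-B stage until plasma cells form, at chr19:11249675-11266241 on the minus strand. It had 0.920, 0.668, 0.519 and 0.302 CPM on day 14, against 7.27, 2.03, 4.06, 4.11 and 0.0859 CPM in controls. Day 7 libraries ran from 0.220 CPM through 1.09 CPM to 1.44 CPM. Control libraries 1 to 4 were above every lymphoma library, and control library 5 was below every one.

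The Ms4a1 means were 0.603 ± 0.260 CPM on day 14 (SD, n = 4), 0.973 ± 0.443 CPM on day 7 (SD, n = 7) and 3.51 ± 2.68 CPM in controls (SD, n = 5). Log2 changes against controls were -2.53 ± 0.80 on day 14 (edgeR adjusted p = 0.0831) and -1.84 ± 0.64 on day 7 (edgeR adjusted p = 0.106). These were the lowest log2 changes among the 7 tested genes in both comparisons with controls, and they did not pass. Between day 14 and day 7 the 7 tested genes had log2 changes from -1.10 (Cd79a) to 0.64 (Cd79b), and none was called.

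**Figure D2:**
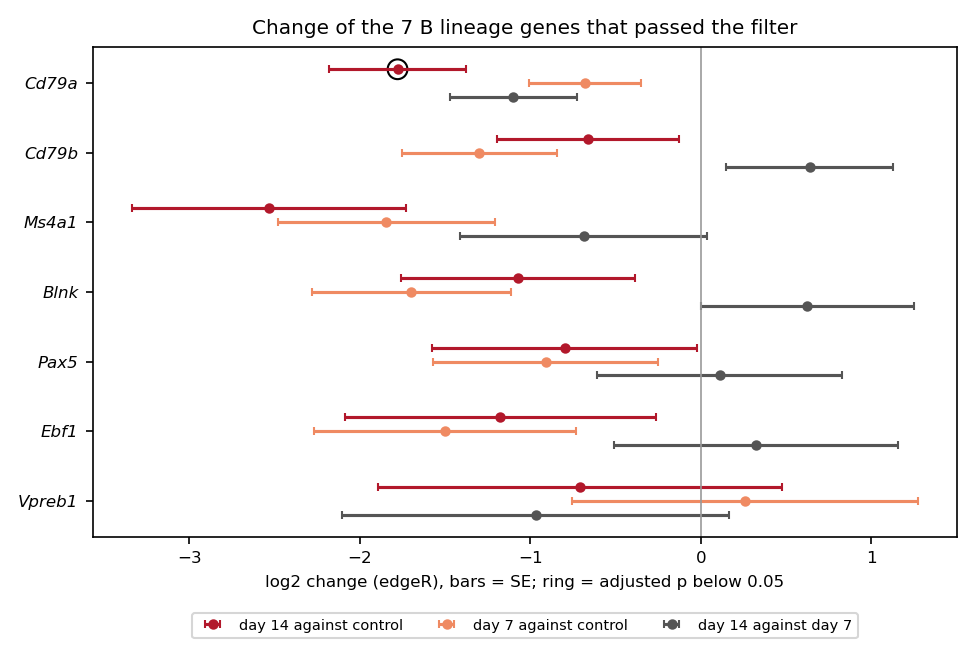
Log2 change of the 7 tested genes (x axis) with its SE, for day 14 against control, day 7 against control and day 14 against day 7; a ring marks an adjusted p under 0.05. The single ring is Cd79a on day 14, at -1.78.

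Pax5 holds B cell identity as a transcription factor, and it lies at chr4:44524757-44710487. It had 0.978, 0.121, 2.18 and 2.12 CPM on day 14, against 5.84, 1.08, 2.23, 2.21 and 0.387 CPM in controls, with day 7 libraries from 0.286 CPM through 1.36 CPM to 2.19 CPM. All groups overlap, and control library 1 alone lies above the rest. Log2 changes against controls were -0.80 ± 0.78 on day 14 (edgeR adjusted p = 0.533) and -0.91 ± 0.66 on day 7 (edgeR adjusted p = 0.471).

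Ebf1, the factor that acts before and beside Pax5 in early B cells, lies at chr11:44617317-45008091. It had 0.633, 0.0607, 1.51 and 2.18 CPM on day 14, against 5.21, 2.53, 0.398, 2.76 and 1.503 CPM in controls, and day 7 libraries ran from 0 CPM through 0.834 CPM to 1.71 CPM. The groups overlap here too. Log2 changes against controls were -1.18 ± 0.91 on day 14 (edgeR adjusted p = 0.437) and -1.50 ± 0.77 on day 7 (edgeR adjusted p = 0.274).

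Per kilobase of exon and scaled by library totals, the signalling chains were the most abundant of the 9 genes and the transcription factors were low. In controls, Cd79a averaged 5.96 ± 2.98 CPM per kilobase and Cd79b 5.33 ± 2.18 CPM per kilobase, Blnk 3.08 ± 1.53 and Ms4a1 1.09 ± 0.84, all as CPM per kilobase (SD, n = 5). Ebf1 had 0.398 ± 0.293 and Pax5 0.281 ± 0.257 CPM per kilobase in the same controls. Neighbours in this order overlap in their spread. In day 14 libraries 1 and 2, Pax5 stood at 0.959 and 0.573 times the mean level per exon kilobase of the olfactory receptor genes, which CD4 T cells are not known to use, and in the other 14 libraries at 2.01 to 49.1 times that level. Ebf1 stood at 0.830 and 0.383 times that level in the same 2 libraries, at 1.25 times in day 7 library 3 and at 0 in day 7 library 4. Vpreb3 stood at 1.05 times in day 14 library 1 and 1.14 times in day 7 library 5.

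Vpreb1 encodes a VpreB chain of the surrogate light chain. It had 8, 2, 5 and 2 reads on day 14, against 21, 6, 7, 0 and 15 reads in controls, and 0 to 23 reads on day 7. The groups overlap fully. Its level was 0.241 ± 0.160 CPM on day 14 (SD, n = 4), 0.478 ± 0.384 CPM on day 7 (SD, n = 7) and 0.396 ± 0.316 CPM in controls (SD, n = 5). The log2 changes against controls, -0.71 ± 1.19 on day 14 (edgeR adjusted p = 0.721) and 0.26 ± 1.01 on day 7 (edgeR adjusted p = 0.920), did not pass. Its locus, chr16:16868403-16870843, overlaps Top3b, and the strand setting of the counting is not given in the sources used here.

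Vpreb1 has a near copy, Vpreb2, on the same chromosome, so reads may be split or lost between them. The coding stretches from base 238 to base 387 are shown to make this visible, with the differing bases in capitals (GENCODE annotation of GRCm38).
Vpreb1: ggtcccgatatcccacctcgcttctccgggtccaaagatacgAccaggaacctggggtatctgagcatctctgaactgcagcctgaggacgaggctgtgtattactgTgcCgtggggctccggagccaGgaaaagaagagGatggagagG
Vpreb2: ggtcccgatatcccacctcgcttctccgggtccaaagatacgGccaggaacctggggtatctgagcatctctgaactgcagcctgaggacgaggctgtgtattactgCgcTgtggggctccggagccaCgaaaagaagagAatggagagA
The whole coding sequences of 426 bases differ at 9 bases (97.9% identity), and their longest identical run is 196 bases. Vpreb2 had 8, 0, 0 and 0 reads on day 14, 0 reads in every control, and 8 and 5 reads in day 7 libraries 2 and 5 with 0 in the others. Day 14 library 1 and day 7 libraries 2 and 5 had 69.8%, 62.9% and 61.7% of reads outside gene models. They averaged 6.99, 3.05 and 3.21 reads per olfactory receptor gene. Per kilobase of exon, Vpreb2 stood at 4.76, 10.9 and 6.47 times those genes. The part of this background in the Vpreb2 reads was not tested.

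Vpreb3 encodes a VpreB-like protein of B lineage cells, at chr10:75943057-75949657. It had 2, 4, 4 and 2 reads on day 14, against 0, 18, 21, 0 and 0 reads in controls, and 0 to 7 reads on day 7. Reads were in all 4 day 14 libraries, in 3 of 7 day 7 libraries and in 2 of 5 controls, where they were the highest of all. It did not pass the count filter.

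Igll1 encodes lambda5, the other part of the surrogate light chain, at chr16:16860671-16863985. It had 10, 0, 4 and 0 reads on day 14, against 0 reads in every control, and 0, 9, 6, 1, 6, 0 and 1 reads in day 7 libraries 1 to 7. Over each group that is 14 reads on day 14, 23 on day 7 and 0 in controls, where a count of 0 allows up to 3 reads over the group or 0.0244 CPM, a limit that covers counting error only. Pooled over the libraries of each group, that is 0.220 CPM on day 14 and 0.153 CPM on day 7, and 10 of the 14 day 14 reads are from library 1. These pooled values and the limit of 0.0244 CPM are scaled by library totals alone. With the filter removed, the edgeR test did not call Igll1 (adjusted p = 0.122 on day 14 and 0.133 on day 7). Among the 22927 genes with reads, 1.44% likewise had 0 reads in every control and reads in 7 or more of the 11 lymphoma libraries.

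The Igll1 counts were set beside 2 measures of background in the same libraries. The 5 libraries with 4 or more Igll1 reads had 61.7% to 69.8% of their reads outside gene models, whereas no control was over 56.7%. Day 14 library 4, at 62.3%, had 0 Igll1 reads. The same 5 libraries averaged 6.99, 4.44, 3.05, 4.65 and 3.21 reads per olfactory receptor gene, taken as day 14 libraries 1 and 3 and then day 7 libraries 2, 3 and 5. Their Igll1 counts in that order were 10, 4, 9, 6 and 6 reads. Per kilobase of exon, Igll1 stood at 5.19, 3.27, 10.7, 4.68 and 6.77 times the olfactory receptor genes in those libraries. Control library 2 averaged 2.93 reads per olfactory receptor gene, near the 3.05 of day 7 library 2, and had 0 Igll1 reads. The other controls averaged 0.593 to 1.25 reads per such gene. Of the 1108 olfactory receptor genes, 83 (7.49%) had the Igll1 pattern of 0 reads in controls and reads in 7 or more lymphoma libraries, a comparison chosen after seeing the data. Olfactory genes have longer gene models on average, 3.15 kb of exon against 0.87 kb for Igll1. Their coding parts average 0.943 kb, against 627 bases for Igll1. The ratios per kilobase rest on GENCODE's exon lengths, while the annotation used in the counting is not given in the sources used here. The part of this background in the Igll1 reads was not tested.

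**Figure D3:**
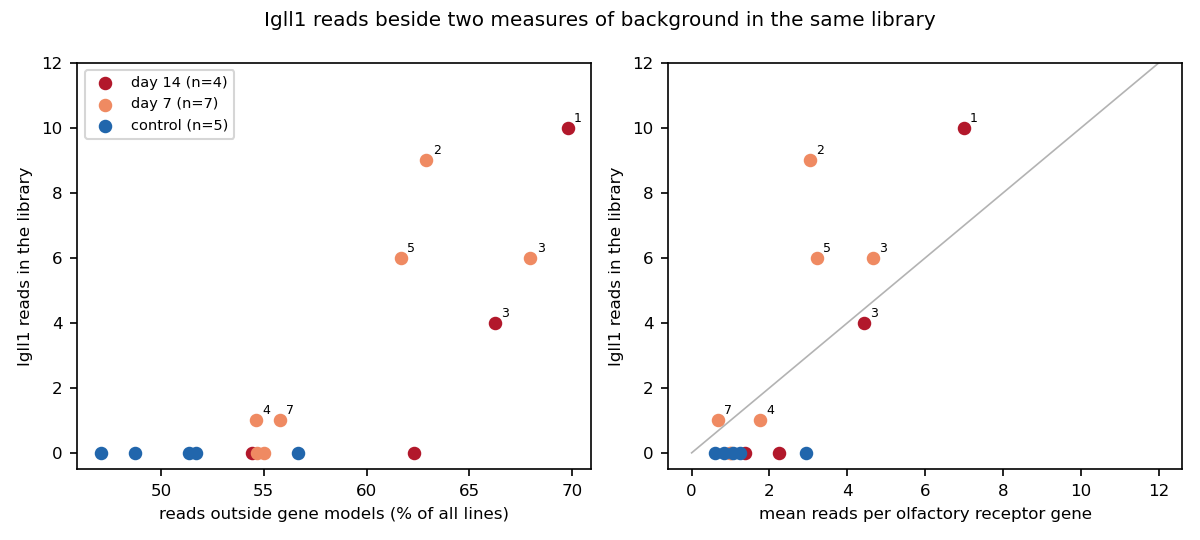
Igll1 reads per library (y axis) against the percent of reads outside gene models (left) and the mean reads per olfactory receptor gene (right); points are libraries of day 14 (n = 4), day 7 (n = 7) and control (n = 5), and the grey line marks equal counts. The 5 libraries with 4 or more Igll1 reads lie at 61.7% or more on the left.

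Myc, the gene that the tumour's transgene carries, was not called in any comparison. It had 192 ± 55.1 CPM on day 14 (SD, n = 4), 161 ± 33.8 CPM on day 7 (SD, n = 7) and 167 ± 22.5 CPM in controls (SD, n = 5). T cells also transcribe Myc, so its level is no marker of the tumour here. Its log2 change against controls was 0.20 ± 0.19 on day 14 (edgeR adjusted p = 0.525) and -0.06 ± 0.16 on day 7 (edgeR adjusted p = 0.888).

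The 9 genes summed to 7.94, 10.4, 15.8 and 24.0 CPM in the day 14 libraries, against 53.1, 34.1, 29.7, 36.7 and 10.6 CPM in controls. Day 7 libraries ran from 7.45 CPM to 22.4 CPM. Control libraries 1 to 4 were above every lymphoma library, and control library 5 lay among the lowest. The highest sums of day 14 (library 4) and of day 7 (libraries 6 and 7) were in libraries with Y-linked transcripts. Those libraries also had the highest neutrophil sums of their groups, 1730 CPM on day 14 and 24.2 and 36.4 CPM on day 7, against at most 60.8 CPM and 9.31 CPM in the others. Among the controls the order was mixed. Library 1, the highest at 53.1 CPM, holds Y-linked transcripts. Library 4, without them and with 30.2 CPM of neutrophil genes, had 36.7 CPM of the B lineage genes. Library 2, with them and with 2270 CPM of neutrophil genes, had 34.1 CPM. The part of these differences in the B lineage levels was not tested.

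Other genes of the B lineage were read in the same libraries. Of 14 other mature B cell genes, 0 were called in any comparison, and their median log2 change against controls was -1.12 on day 14 and -1.24 on day 7, with 12 and 13 of 14 below 0. At an unadjusted p under 0.05, 5 and 6 were lower, and DESeq2 called 1 and 4 lower. Ralgps2, the most abundant gene of this list, had 54.0 ± 9.04 CPM on day 14, 72.9 ± 1.90 CPM on day 7 and 68.2 ± 10.7 CPM in controls.

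Genes of antigen presentation are shared by B cells, dendritic cells and macrophages. Of 9 MHC class II genes, 4 were called lower on day 14 against controls, beside 1.80% of all tested genes, and 0 were called on day 7. At an unadjusted p under 0.05, 6 were lower than in controls on day 14 and 8 on day 7. DESeq2 called 5 and 4 lower, and limma-voom called none. The median log2 change against controls was -1.57 on day 14 and -1.83 on day 7. Cd74, the invariant chain, had 31.2 ± 13.4 CPM on day 14 (SD, n = 4) and 196 ± 131 CPM in controls (SD, n = 5), a log2 change of -2.65 ± 0.69 (edgeR adjusted p = 0.0445). The class II chains H2-Aa, H2-Ab1 and H2-Eb1 fell by 4.17, 4.05 and 3.95 on the log2 scale (edgeR adjusted p = 0.0323, 0.0438 and 0.0295). The list summed to 64.5 to 111 CPM on day 14 and 106 to 602 CPM in controls, with control library 5 the lowest control. Without control libraries 1 and 2, Cd74 and H2-Ab1 were no longer called (edgeR adjusted p = 0.0901 and 0.0661), and the log2 change of Cd74 was -1.82.

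Of 7 other B lineage regulators, 1 passed: Pou2f2, which encodes the octamer factor Oct2 and is also used by T cells, rose to 117 ± 28.1 CPM on day 14 (SD, n = 4), against 73.9 ± 13.4 CPM in controls (SD, n = 5), a log2 change of 0.67 ± 0.16 (edgeR adjusted p = 0.0313). That call was lost without control libraries 1 and 2 (edgeR adjusted p = 0.0560), and among the libraries with no Y-linked transcripts the log2 change was 0.42 (edgeR adjusted p = 0.141). The list as a whole lay the other way, with 5 of 7 genes below 0 and a median log2 change of -0.47 on day 14, and 5 of 7 and -1.34 on day 7 against controls. On day 7, 5 were lower at an unadjusted p under 0.05, and DESeq2 called 2 lower. Bach2, the most abundant of these regulators, was not called. Of 8 other pro-B and pre-B cell genes, 7 were tested and 1 was called on day 14: Sox4, a transcription factor also used by T cells, fell to 21.2 ± 9.17 CPM on day 14 (SD, n = 4), against 41.8 ± 2.93 CPM in controls (SD, n = 5; log2 change -0.98 ± 0.26, edgeR adjusted p = 0.0490). The Sox4 call too was lost without control libraries 1 and 2 (edgeR adjusted p = 0.0676). As a list, 4 of the 7 tested genes lay above 0 against controls on day 14 and also on day 7. The median log2 changes were 0.05 and 0.07. At an unadjusted p under 0.05, 1 and 3 were lower, and DESeq2 called 1 and 2 lower. On day 14 against day 7, 5 of 7 lay above 0, with a median of 0.82, and DESeq2 called 1 higher. Rag1, which cuts the antigen receptor genes, had 1.71 ± 0.610 CPM on day 14 and 0.402 ± 0.432 CPM in controls and did not pass (edgeR adjusted p = 0.258).

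Of 8 plasma cell genes, 1 was called: Prdm1, which drives plasma cell formation and is also used by activated T cells, rose on day 14 to 20.2 ± 6.14 CPM (SD, n = 4), against 9.999 ± 1.64 CPM on day 7 (SD, n = 7; edgeR adjusted p = 0.0280) and 10.99 ± 2.42 CPM in controls (SD, n = 5; edgeR adjusted p = 0.0442). Against controls, the other 7 genes of the list lay below 0 on day 14 and all 8 did on day 7, with medians over the list of -0.99 and -1.21. At an unadjusted p under 0.05, 3 and 6 were lower, and DESeq2 called 1 and 2 lower. Igj, which joins secreted antibody units, averaged 58.2 ± 63.3 CPM on day 14 and 262 ± 188 CPM in controls, with no call. Of 8 kinases and adaptors that B cells share with other blood cells, 0 were called, and Vav1 was the most abundant. Their median log2 change against controls was -0.54 on day 14 and -1.95 on day 7, where 5 were lower at an unadjusted p under 0.05 and DESeq2 called 3 lower.

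**Figure D4:**
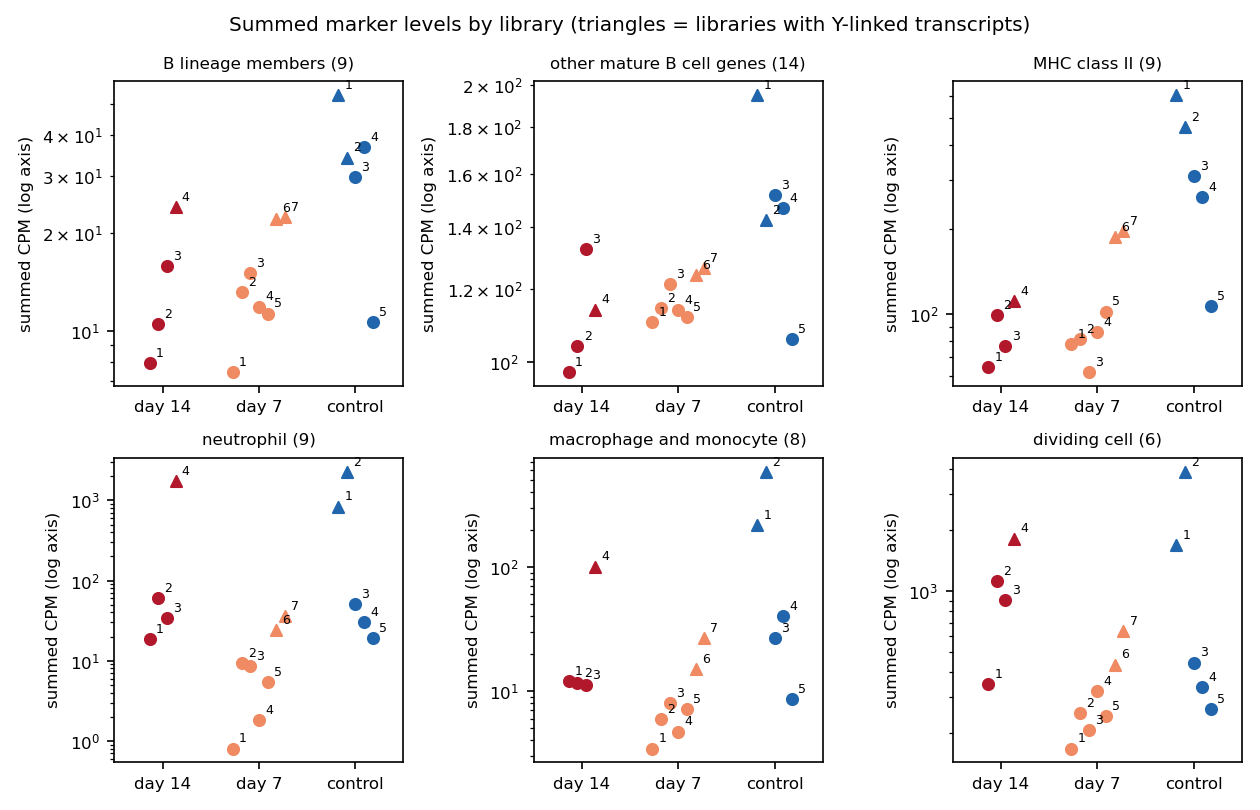
Summed CPM (log axis) of 6 marker lists in each library of day 14, day 7 and control; triangles are the libraries with Y-linked transcripts and numbers are replicates. The B lineage sum is 53.1 CPM at its highest, in control library 1, and 7.45 CPM at its lowest, in day 7 library 1.

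Markers of other cell types were read in the same libraries. Of 9 neutrophil genes, S100a8, S100a9 and Ngp were called lower on day 14 than in controls (edgeR adjusted p = 0.0441, 0.0417 and 0.0487), and Mpo, Elane and Ctsg were called higher on day 14 than on day 7 (edgeR adjusted p = 0.0439, 0.0437 and 0.0499). Mpo, the granule enzyme of early neutrophils, stood at 1226 CPM in day 14 library 4 and at 9.20 to 36.1 CPM in the other day 14 libraries. On day 7 against controls edgeR called none of the 9, but all 9 were lower at an unadjusted p under 0.05 and by DESeq2, with a median log2 change of -5.70. DESeq2 called 8.45% of all genes lower in that comparison. The neutrophil sums were 835 and 2270 CPM in control libraries 1 and 2, against 50.9, 30.2 and 19.1 CPM in control libraries 3, 4 and 5. Control libraries 1 and 2 also had the highest control sums of the dividing cell, macrophage and erythroid lists. Of the T cell, CD8 T and NK, macrophage, dendritic, stromal, erythroid and dividing cell lists, edgeR called 0 genes. All 6 genes of dividing cells were lower on day 7 than in controls at an unadjusted p under 0.05 and by DESeq2 (median log2 change -2.01), and all 6 were higher on day 14 than on day 7 at an unadjusted p under 0.05 (median 1.80), with 2 called by DESeq2. Of 8 macrophage and monocyte genes, 6 were lower on day 7 than in controls at an unadjusted p under 0.05, and 5 by DESeq2 (median -2.68). Of the 8 T cell genes, 6 were lower on day 14 than on day 7 at an unadjusted p under 0.05, and 2 by DESeq2 (median -0.45). All 3 tested erythroid genes were lower on day 7 than in controls at an unadjusted p under 0.05, and 1 by DESeq2 (median -3.24). The globin genes of that list, Hba-a1, Hba-a2, Hbb-bt and Hbb-bs, had 0 reads in every library, for a reason that was not tested. In the other lists at most 3 genes differed in any comparison by either measure. The most abundant genes of those lists were Cd3e, Prf1, Lyz2, Ccr9, Pecam1, Klf1 and Mki67. Without control libraries 1 and 2, S100a8, S100a9 and Ngp were no longer called, and without day 14 library 4 the adjusted p of Mpo, Elane and Ctsg was 0.635, 0.533 and 0.612 (edgeR). The part of these other cells in the B lineage values was not tested.

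The calls on day 14 against controls depended on which libraries entered the fit. All 11 calls named here in that comparison, Cd79a among them, were lost without day 14 library 3, without control library 1 or 3, and when edgeR was given only the day 14 and control libraries. In that last fit, 0 genes of the whole table were called lower and 4 higher. The log2 changes moved less than the calls: Cd79a stood at -1.77 and H2-Aa at -4.14 in that fit (edgeR adjusted p = 0.126 and 0.0639), and with any 1 library left out H2-Aa stayed between -4.45 and -3.76.

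Likeness over the 16 libraries was measured as Pearson's r of log2(CPM + 1) and is a description, since the libraries share groups and depth. The genes most like Cd79a were Faim3 (r = 0.86), Ppp1r8 (r = 0.85) and Ddx10 (r = 0.84). Those most like Cd79b were Wdfy4 (r = 0.88), Mef2c (r = 0.87) and Txlna (r = 0.87), and Blnk was most like Themis2, Ctsh and Mef2c (r = 0.94 each). Ms4a1 was most like Faim3 (r = 0.90), H2-Aa (r = 0.84) and Fcrla (r = 0.83). Pax5 was most like H2-DMb2 (r = 0.83), Bank1 (r = 0.78) and Haao (r = 0.76), and Ebf1 was most like Ncs1 (r = 0.81), Tnfrsf17 (r = 0.80) and Rcl1 (r = 0.78). Among the 7 tested members, r was highest between Cd79b and Blnk, at 0.81, and lowest between Blnk and Vpreb1, at -0.15.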

How the data were processed

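RNA was sequenced from splenic CD4 T cells, with a NuGEN kit per the labels' protocols, giving 16 libraries. The table deposited by the authors holds raw read counts of 23479 genes as whole numbers. Tools listed in the submitters' processing notes are HTSeq 0.6.1, cutadapt 1.8.1 and bcl2fastq 2.20.0.422, with the mm10 build. The aligner, annotation and strand setting are not given in the sources used here. Besides the genes, 5 summary lines such as reads outside gene models were set aside.

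The main test was edgeR 4.0.16 in R 4.3.3, with TMM scaling, filterByExpr (5049 genes removed, Vpreb3 and Igll1 among them), all 16 libraries in a single quasi-likelihood model, and p-values adjusted by Benjamini-Hochberg at 0.05. The SE of a log2 change is its size over the root of F. Alternatives were DESeq2 1.42.0, limma-voom 3.58.1, other scalings and filters, other sample choices and a replicate term. The model was tested on simulated data with 200 changed genes. Gene positions and exon lengths are from GENCODE's annotation of GRCm38, and promoters from RefSeq. The design text counts mice, so each library was taken as 1 mouse, and p-values measure the spread between these libraries.

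The 9 genes and the 15 other lists were chosen with earlier results of these data known. All 9 are named, with every called gene of a list (at most 6 per comparison), else its most abundant gene, and the 3 most alike genes per member with a mean of at least 1 CPM. Rag1 and Igj were added after their values were seen. A further gene is not reported here.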

Additional observations from a re-analysis of the deposited data

Results flagged for a closer look

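A value was listed where 1 library lay far from the others of its group, by Dixon's test in groups of 4 to 10; 26 groups were tested, and chance flags about 1 in 20. Cd79b in control library 5 was 2.28 CPM, and the nearest control was 8.57 CPM. Vpreb3 in day 7 library 7 was 0.278 CPM (7 reads), and the nearest day 7 library was 0.0875 CPM.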

How the results depend on the processing

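Of 1047 alternative values for the genes tested and named, 822 kept their direction and their side of the threshold, 200 lost the call, 10 gained one and 15 changed sign. Of the 7 tested B lineage genes, 1 was called on day 14 against controls; DESeq2 called 2, and limma-voom, the fit with only the compared groups, the replicate block and the libraries without Y-linked transcripts each called 0, with 0 to 2 called when 1 library was left out. It was 0 without day 14 library 1, 3 or 4 or control library 1, 3 or 4, and 2 without control library 5. On day 7 against controls 0 were called; DESeq2 called 3, a Y-linked covariate called 2 (Cd79b, Blnk; 570 of all genes were then called lower and 218 higher), and leaving out 1 library gave 0 to 3. No B lineage gene was called on day 14 against day 7 under any setting. The adjusted p of Cd79a on day 14 was 0.0566 with limma-voom, 0.126 with the compared groups only and 0.0729 with the replicate block (log2 change -1.90). Deviations of same-numbered libraries from their group means correlated at -0.34 to 0.30. Differently numbered libraries were not compared, so this range cannot decide whether the numbers pair mice. Signs reversed for Pax5 on day 14 against day 7 (limma-voom -0.19, replicate block -0.093, 1 library left out -0.22 to 0.49), Ebf1 on day 14 against day 7 (without Y-linked libraries -0.26, 1 library left out -0.25 to 0.71) and Vpreb1 on day 7 against controls (1 library left out -0.036 to 0.66), and for Myc on day 14 (without Y-linked libraries -0.088, 1 library left out -0.0053 to 0.32) and on day 7 (1 library left out -0.12 to 0.047) against controls; the cause was not tested. Over all genes on day 14 against controls, calls were 331 lower and 246 higher; RLE scaling gave 250 and 289, DESeq2 699 and 852, the replicate block 21 and 25, and leaving out 1 library 18 to 999 lower and 42 to 487 higher. On day 7 against controls the 0 lower and 2 higher became 1104 and 499 with DESeq2 and up to 1026 and 429 without control library 5. The settings with Y-linked genes were chosen after seeing the data. At 0 to 23 reads per library, a small change in Vpreb1, Vpreb3 or Igll1 could not be detected.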
